A study of Mus musculus with 2 samples.

Results

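The sample described here was the monocyte array, 1 of the 2 one-colour arrays of a series that measured gene expression in monocytes and in granulocytes of mouse bone marrow. It was picked out by its label, with earlier results of these data known. Both cell types came from wild type C57BL/6 males, whose bone marrow cells were sorted. The sources used here give no treatment, age, sorting markers or number of animals. Per the labels, 0.5 µg of total RNA went into a linear T7 amplification, and the product carried the dye Cy3. With 1 array for the cell type there is no spread between samples, so every statement below is a description of this array, with no test. In a bulk sample, fewer cells of a type and less RNA per cell cannot be told apart.

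Monocytes are circulating phagocytes that arise in the marrow from progenitors shared with granulocytes. The growth factor M-CSF, acting through its receptor Csf1r, and the transcription factors Spi1 (PU.1), Irf8 and Klf4 direct their formation. Classical monocytes leave the marrow by way of the chemokine receptor Ccr2, and they carry lysosomal enzymes, Fc receptors and an oxidase with which they take up and destroy microbes.

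Of 19748 named genes with a value, 15188 (76.9%) had at least 1 probe whose signal the scanner software marked as well above background. These 15188 genes were ranked by the signal of their brightest such probe, from 332363 to 9.53 intensity units. A percentile of 100 marks the bright end of the ranking and rank 1 the brightest gene. The brightest 1% held 152 genes (1%) with signals of 66487 or more, and the brightest 10% held 1519 genes (10%) with 7866 or more. The middle band, from the 40th to the 60th percentile, held 3038 genes (20.0%) between 231 and 1012, and the lowest 10% held 1519 genes (10%) at 22.6 or less. The last gene inside the brightest 1% was Ifi27l2a (66487 ± 6649, the error the scanner software assigns to the spot), and Shisa5 (65798 ± 6580) was the next gene outside it, a gap far smaller than either error. Inside and outside the edge of the brightest 10%, Mkrn1 and Itpr1 both read 7866.

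**Figure D1:**
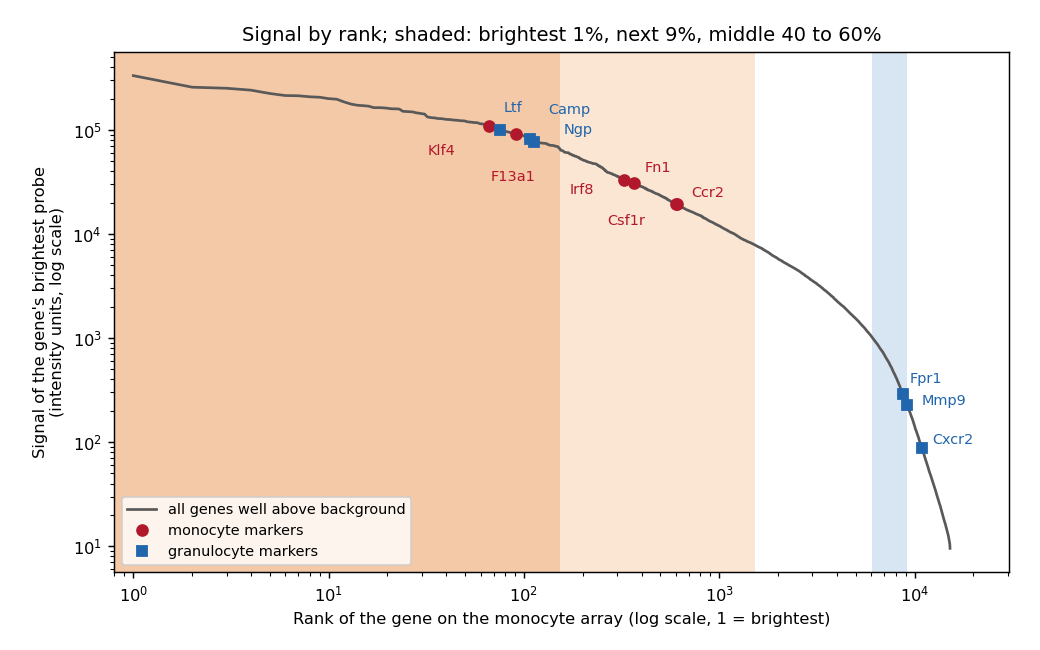
Signal of each gene's brightest probe (intensity units, log scale) against the rank of the gene on the monocyte array (log scale), for the 15188 genes well above background; the shaded ranges are the brightest 1%, the next 9% and the middle 40 to 60%. The 6 monocyte markers (circles, with Ccr2 and Csf1r at nearly the same point) lie in the brightest 10%, while of the granulocyte markers (squares) Ltf, Camp and Ngp lie in the brightest 1% and Fpr1, Mmp9 and Cxcr2 at 293, 227 and 88.3 units.

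A rank on an array orders signals, not numbers of mRNA molecules, because a probe's brightness also depends on the probe. Repeated spots of the same probe differed little, with a median SD of 0.07 on the log2 scale over 177 probes with at least 8 spots. Different probes of the same gene differed far more. Among 6053 genes with at least 2 probes well above background, the SD over a gene's probes had a median of 1.57 (log2), and the median gap between the brightest and the dimmest was 5.85-fold, or 23.7 percentile points. In 1761 genes (29.1%) the probes lay more than 16-fold apart. The position of a single gene is therefore read below as a band. Ranks, and genes given as the brightest of a group or nearest its median, describe the signals of single probes, and the order of RNA levels among genes of a band is not resolved.

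Part of that spread followed the place of the probe in its transcript. In 6706 pairs of probes on the same RefSeq transcript, from 4312 genes, the probe nearer the 3′ end was the brighter in 69.2%. The median ratio of the downstream to the upstream probe grew with distance, from 1.12-fold for probes up to 100 bases apart (n = 448 pairs) to 1.44-fold up to 300 bases, 2.12-fold up to 1000, 2.83-fold up to 2000 and 3.57-fold up to 5000 (n = 1596 pairs). Pairs of the same gene share probes, so they are no replicates of each other. Fibronectin, a secreted matrix protein of classical monocytes encoded by Fn1, gave an example. Its probe that starts at base 7189 of the transcript read 30708 (SD 377, n = 10 spots), and its probe that starts at base 2688 read 447 ± 44.7. The 60-base sequences below show what such values rest on, with no part marked by capitals. They were shown because each spans more of the genome than its own length, as a probe across an exon junction does, and because they sample the brightest 1% (Rps29 of the small ribosomal subunit, the class I molecule H2-T23, the signalling adaptor Tyrobp and the granule protein Ngp) and the middle band (Spi1, and the upstream probe of Fn1). All are read 5′ to 3′ from the deposited file, with positions in the mouse build mm8.
Fn1, base 7189, chr1:71524056-71526293, minus strand: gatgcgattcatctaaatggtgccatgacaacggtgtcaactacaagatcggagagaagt
Fn1, base 2688, chr1:71560522-71561280, minus strand: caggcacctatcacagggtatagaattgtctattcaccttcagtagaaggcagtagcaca
Rps29, chr12:70076421-70077319, minus strand: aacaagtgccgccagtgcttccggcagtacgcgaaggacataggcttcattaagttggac
H2-T23, chr17:35638446-35638682, minus strand: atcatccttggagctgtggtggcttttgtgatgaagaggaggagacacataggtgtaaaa
Tyrobp, chr7:30124392-30126119, plus strand: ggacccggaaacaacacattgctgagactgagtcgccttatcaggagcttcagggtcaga
Ngp, chr9:110266929-110267477, plus strand: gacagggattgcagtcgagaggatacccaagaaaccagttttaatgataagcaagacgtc
Spi1, chr2:90900347-90914134, plus strand: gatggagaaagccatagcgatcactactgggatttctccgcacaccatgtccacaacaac

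The signals of these probes were 117836 ± 11784 for Rps29, 84112 ± 8411 for H2-T23, 74684 ± 7468 for Tyrobp and 77120 ± 7712 for Ngp. The only probe of Spi1 read 468 ± 46.8 and starts at base 275 of its transcript, so its place in the middle band (percentile 48.5) rests on an upstream probe. The share of G and C in the representative probes overlapped between the bands but was shifted at the extremes. Its median was 45% in the brightest 1% (quartiles 41.7 and 51.7) and 43.3% in the middle band (36.7 and 45). Among genes not well above background it was 40% (35 and 45). Its part in the signal was not tested.

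**Figure D2:**
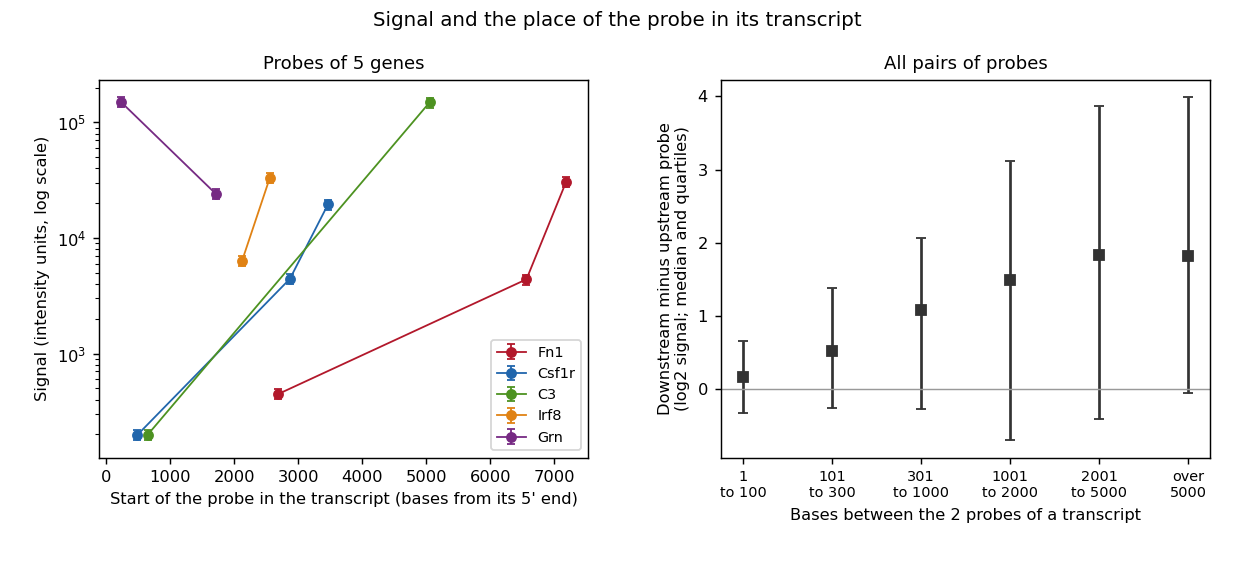
Left, signal (intensity units, log scale, bars for scanner error) of the probes on RefSeq transcripts of 5 genes against the base at which each starts. Right, difference in log2 signal between the downstream and the upstream probe of a transcript (median and quartiles) by the bases between them. Among the drawn probes, Fn1, Csf1r, C3 and Irf8 are brighter downstream and Grn is brighter upstream. The Fn1 probe named by another transcript (9130 ± 913) is not drawn. By genome position it lies upstream of the dimmer probe at base 6568 (4392 ± 439). The median difference rises from 0.17 to 1.84 with distance up to 5000 bases.

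The labelled cell type was set against 6 markers of monocytes. All 6 lay in the brightest 10%, and Klf4 and F13a1 in the brightest 1%. Klf4, a transcription factor of monocyte development, read 109594 ± 10959 (rank 66) by its only probe. F13a1, the A subunit of coagulation factor XIII, read 92237 ± 9224 (rank 91). Irf8, which steers progenitors towards monocytes, read 33346 ± 3335 and 6361 ± 636 by its probes (rank 326). Fn1 read 30708, 9130 ± 913, 4392 ± 439 and 447 ± 44.7 by its 4 probes (rank 365). The receptor Csf1r read 19510 ± 1951, 4436 ± 444 and 197 ± 19.8, brighter towards the 3′ end (rank 599), and Ccr2 read 19248 ± 1925 (rank 607). By their dimmest probes, Fn1 would lie in the middle band (percentile 47.9) and Csf1r just under it (37.9).

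Markers of granulocytes divided sharply. The specific granule proteins Ltf (100092 ± 10009 and 73529 ± 7353 by its probes), Camp (81956 ± 8196) and Ngp, which are antimicrobial proteins packed at the myelocyte stage, lay in the brightest 1%. Mmp9 and Cxcr2, the gelatinase and the chemokine receptor of mature neutrophils, and Fpr1, a receptor for bacterial peptides, did not. They read 227 ± 22.8, 88.3 ± 9.1 and 293 ± 29.4, at the 39.7, 28.3 and 42.8 percentiles. On the granulocyte array, whose intensities are on that array's own scale, Mmp9, Cxcr2 and Fpr1 lay at the 99.6, 95.7 and 98.7 percentiles. The part of granulocytes or of shared precursors in the signal of Ltf, Camp and Ngp was not tested.

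Ribosomal proteins made up the largest group of the brightest 1%. Of 86 genes for cytosolic ribosomal proteins, all well above background, 45 lay in the brightest 1% and 78 in the brightest 10%, with a median percentile of 99.1 where all genes have 50. Together they held 11.4% of the summed signal of the ranked genes. Rpl7a (223878 ± 22388), Rps23 (213901), Rps18 (212951) and Fau (208167), whose product carries the small-subunit protein eS30, gave the highest signals, and Rpl7 (70732) lay nearest the group's median. The dimmest probe of Rps18 read 97.8. Rpl14, a subunit of ribosomes in all tissues, read 1314 ± 131 (percentile 64.4, 1 probe), below the brightest 10% like Rps4l (1924) and Rpl31 (2336). Rpl3l and Rpl39l, known as paralogues used in muscle and in germ cells, read 27.9 ± 3.4 and 31.9 ± 3.8, percentiles 13 and 14.8. These 5 genes are named because of their values. Many ribosomal protein genes have processed pseudogenes with nearly the same sequence, so part of a probe's signal may belong to such copies.

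Of the 152 brightest genes, 113 belonged to at least 1 of the 60 gene groups examined, where 2511 of all 15188 ranked genes did. Of the groups, 35 had no gene among the 152. After the ribosomal proteins came histones with 10, proteins of the actin cytoskeleton with 9, genes typical of classical monocytes with 7, and granule proteins of neutrophils and transcription factors with 5 each. Lysosomal proteins, class I molecules, S100 proteins and splicing factors had 4 each. A gene that is in several groups counts in each of them. The 10 brightest genes alone held 3.97% of the summed signal, the brightest 152 held 29.0% and the brightest 1519 held 72.9%. The other 13669 genes shared 27.1%.

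Several of the highest single signals had no support from other probes of the same gene. Ranks 3 and 4 were Ptprz1, a receptor phosphatase of the nervous system, and Lrrc58, a leucine-rich repeat protein. One probe of Ptprz1 read 251368 ± 25137, while its other probes read 16.9 ± 2.6, 3.94 and 2.31, the last pair not well above background. Lrrc58 read 241064 ± 24106 by 1 probe and 1412, 69.5 and 63.2 by the others. Complement component C3, at rank 27, read 148862 (SD 3484, n = 10 spots) by its downstream probe and 198 ± 19.9 by the probe that starts at base 646. The probe at rank 1, named for the mitochondrial leucyl-tRNA synthetase Lars2, also lists a ribosomal RNA accession. The other synthetases lay well below it, with Qars at 10908 and Lars at 8000, and a median percentile of 66.4 for the 35 genes of the family. Among the 152 genes, 81 had 1 probe, and 31 of the 71 with several had a probe that was more than 16-fold dimmer than the brightest or not well above background. Rps18, the histone gene H2aj (1455 by its other probe) and the glycolysis gene Gpi1 (67.2 by its other probe) were among these 31.

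Proteins that move a phagocyte were prominent. Of 47 genes of the actin cytoskeleton, 9 lay in the brightest 1% and 33 in the brightest 10%, with a median percentile of 96.2. Thymosin β4 (Tmsb4x, 206062 ± 20606), which binds actin monomers, the myosin light chain Myl6 (172696), coactosin (Cotl1, 159417) and the Arp2/3 subunit Arpc1b (133376) were among the brightest, and plastin (Lcp1, 20021) lay nearest the median. Only Myl12a (353), Coro1c (237) and Actn1 (237) were in the middle band, and none of the 47 lay below it. Of 15 tubulins well above background, 7 were in the brightest 10%, among them Tuba1c (71739) and Tuba4a (56558).

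Energy supply and protein turnover were bright as whole groups. Of the 17 subunits of ATP synthase, 13 lay in the brightest 10%, with a median percentile of 97.3 and Atp5c1 (70981) at the top. Complex I, which passes electrons from NADH into the respiratory chain, had 24 of 37 subunits there (median 92), among them Ndufa13 (55274). Cytochrome c oxidase and the bc1 complex had 18 of 25 (median 94.6), among them Cox6a1 (117289), and the subunits Cox7b2, Cox8b and Cox8c, known from testis or muscle, were not well above background (chosen after their values were seen). Glycolysis had 12 of 21, with Aldoa (107219), Gpi1 (96689), Gapdh (35750) and Pgk1 (34052), and the hexokinase Hk3 (9609) nearest its median of 91.9. Proteasome subunits had 24 of 47 (median 91.1), among them Psme2 (50903), part of the interferon-inducible activator, and Psma7 (47240). Chaperones had 25 of 39 (median 94), among them Hspa8 (74519), Hspa1a (72549), Cdc37 (55774) and Hsp90aa1 (47327). Antioxidant enzymes and ferritins had 19 of 31 (median 93.8), among them glutathione peroxidase 1 (Gpx1, 131838) and ferritin heavy chain (Fth1, 124651), the iron store of the cell.

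**Figure D3:**
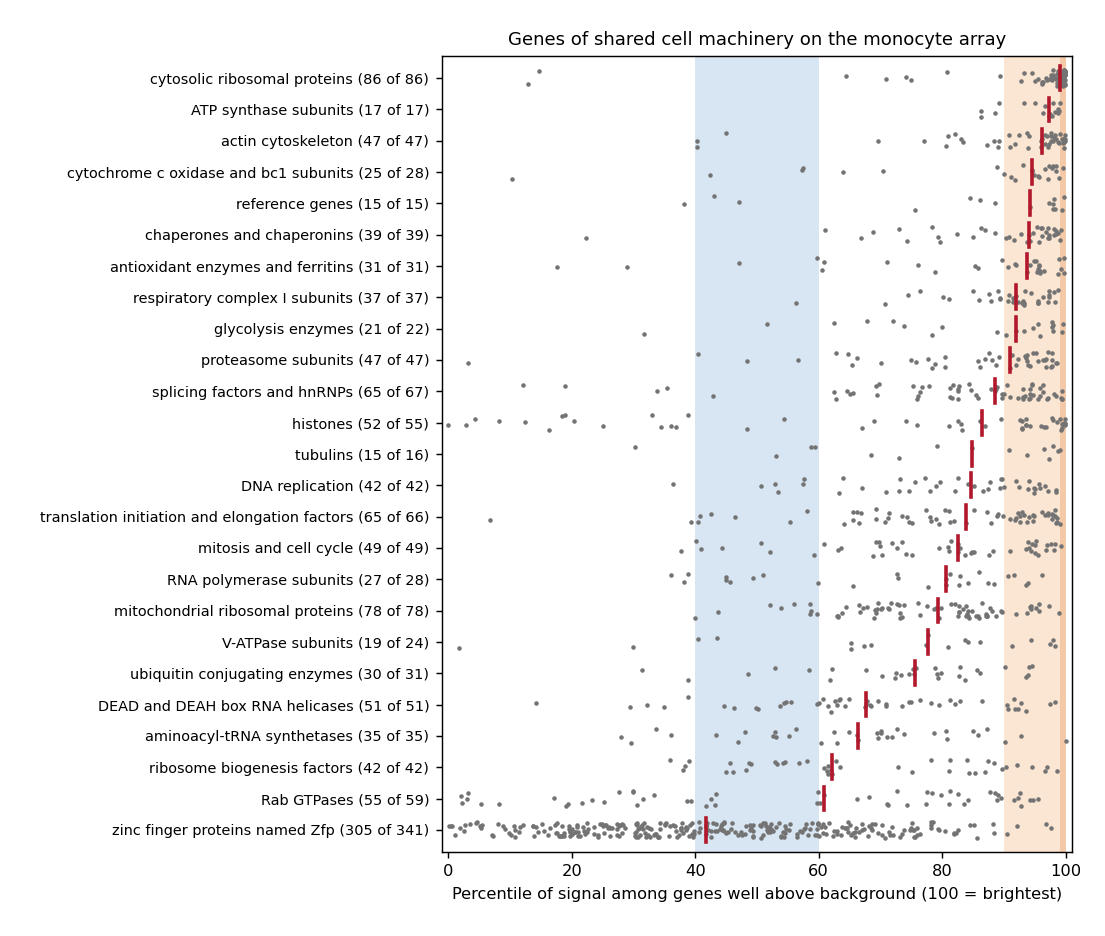
Percentile of signal among genes well above background (100 = brightest) for the genes of 25 groups of shared cell machinery on the monocyte array; each dot is a gene, red bars are group medians, labels give genes well above background of those measured, and shading marks the middle band and the brightest 10% and 1%. Medians run from 99.1 for cytosolic ribosomal proteins to 41.7 for zinc finger genes named Zfp.

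Genes of dividing cells were also bright. Of 42 genes of DNA replication, all well above background, 13 lay in the brightest 10% and 5 in the middle band, with a median percentile of 84.6. The helicase subunit Mcm6 (45216) and the sliding clamp Pcna (43672, SD 1726, n = 10 spots) were among the brightest, and Mcm2 (5031) lay nearest the median. Of 49 genes of mitosis and the cell cycle, 16 lay in the brightest 10%, with a median of 82.5. The microtubule regulator Stmn1 (79388) was in the brightest 1%, and Birc5 (38887), the proliferation marker Mki67 (37142) and Incenp (30752) were in the brightest 10%. Histones spread over the whole range: 24 of 52 lay in the brightest 10% and 4 in the lowest 10%, with H2ac1 (169286), H3f3b (159603), H2aj (146158) and H2ac20 (144855) at the top. Histone genes are close copies of each other, so their signals may be shared.

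Splicing factors and hnRNPs had a median percentile of 88.5 (28 of 65 in the brightest 10%), among them Hnrnpk (94087). Translation factors had 83.9 (26 of 65), among them Eef1a1 (72476). Mitochondrial ribosomal proteins had 79.3, with 10 of 78 in the brightest 10%, 9 in the middle band and none below it. With the dimmest probe of each gene above background, the medians of these 3 groups were 77.9, 77.4 and 83.1, so their order rests on the choice of probe. Ribosome biogenesis factors had 62.1, with 12 of 42 in the middle band. Fibrillarin (Fbl, 50943) and nucleophosmin (Npm1, 25385) were among the brightest, and Tsr1 (486), Rrp9 (475) and Utp4 (461) lay close to the 50th percentile.

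Of 33 genes typical of classical monocytes, all well above background, 7 lay in the brightest 1%, 22 in the brightest 10% and 4 under the middle band, with a median percentile of 96.0. Lysozyme (Lyz2, 163063 ± 16306 and 44636 by its probes), the chitinase-like protein Chil3 (151004 ± 15100), Plac8 (130411 ± 13041) and the pore-forming protein Mpeg1 (128168 ± 12817, and 958 by its other probe) were among the brightest, and Ccr2 lay nearest the median. Genes of non-classical, patrolling monocytes lay lower, with 3 of 17 in the brightest 10%, 5 in the middle band and a median of 55.6. Nr4a1, the nuclear receptor on which these cells depend, read 76634 ± 7663, the sialomucin Spn 23278, the integrin chain Itgal 8455 and the tetraspanin Cd9 5875. Fcgr4, an Fc receptor of patrolling cells, lay nearest the median at 770 ± 77.0, and Ceacam1 (572), Ace (379) and Pparg (373) were in the middle band. Both lists were chosen with earlier results of these data known. Some of their genes are in more than 1 list, among them Lyz2, Chil3, F13a1, Ctss and Nr4a1.

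**Figure D4:**
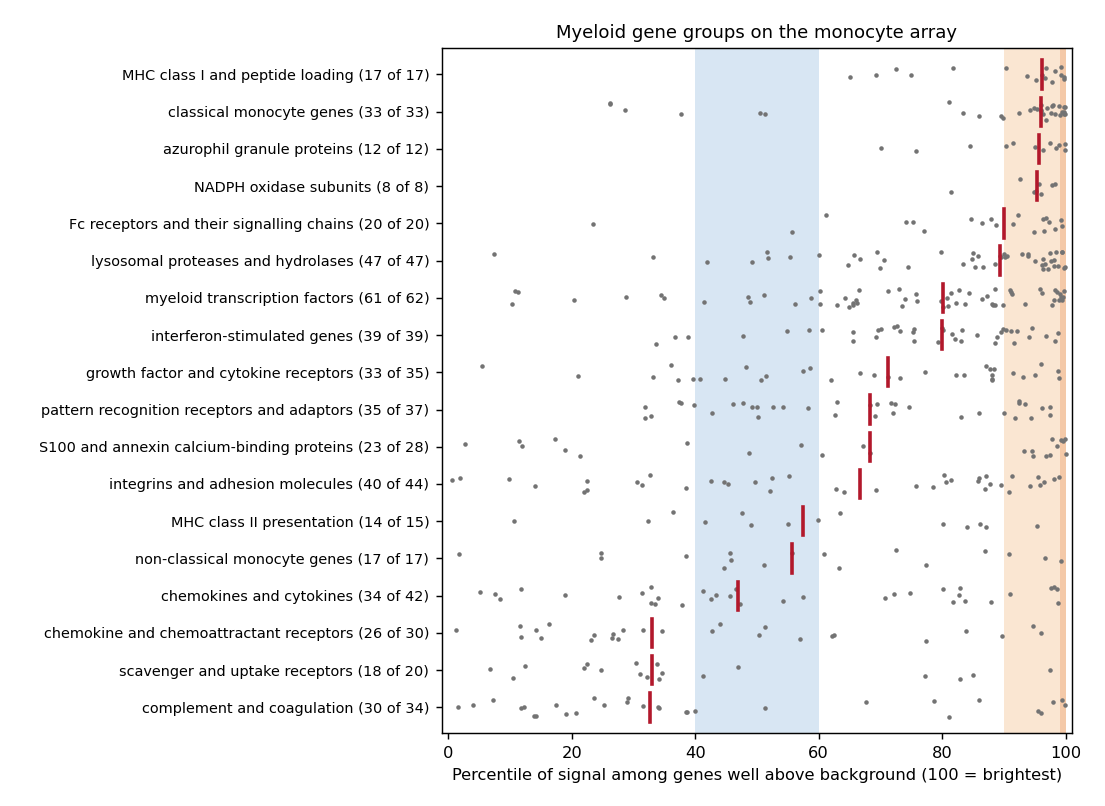
Percentile of signal among genes well above background (100 = brightest) for the genes of 18 myeloid groups on the monocyte array; dots are genes, red bars are group medians, labels give genes well above background of those measured, and shading marks the middle band and the brightest 10% and 1%. Medians run from 96.1 for class I presentation and 96.0 for classical monocyte genes to 32.7 for complement and coagulation.

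Transcription factors of myeloid cells had a median percentile of 80.1 over 61 genes, with 5 in the brightest 1%, 16 in the brightest 10% and 6 in the middle band. Junb (128383 and 94455 by its probes), Klf4, Klf2 (96732) and Nr4a1 were the brightest, and Irf7 (3518) lay nearest the median. Mitf (568), Runx1 (478) and Spi1 (468) lay nearest the 50th percentile. Ebf1, which commits cells to the B lineage, was not well above background (9.19).

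All 8 subunits of the NADPH oxidase, which makes superoxide in the phagosome, were well above background, 7 of them in the brightest 10%, with Ncf4 (38683), Rac2 (33054), Cyba (19569) and Rac1 (17590) at the top and a median percentile of 95.4. Of 47 lysosomal proteases and hydrolases, 22 were in the brightest 10%, 5 in the middle band and 2 below it (median 89.4). Progranulin (Grn, 150138 ± 15014 and 23980 by its probes), cathepsin S (Ctss, 124390), cathepsin H (Ctsh, 95918) and prosaposin (Psap, 89413) were among the brightest, and Gm2a (7392) lay nearest the median. Fc receptors and their signalling chains had 10 of 20 in the brightest 10% (median 90), with the inhibitory receptor Pirb (93013), the adaptors Tyrobp and Fcer1g (41948) and Sirpa (27802) at the top. Of the calcium-binding S100 proteins and annexins, S100a9 (257392 ± 25739), S100a4 (197280), S100a8 (118703) and S100a6 (74382) lay in the brightest 1%, while the group as a whole spread widely, with 11 of 23 in the brightest 10%, 7 under the middle band and a median of 68.3.

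A list was drawn up for the azurophil granule, the first granule made in granulocyte and monocyte precursors. It is wider than the granule's contents, as it holds the chaperone Calr, the protease inhibitor Serpinb1a and the membrane protein Ms4a3. All 12 of its measured genes were well above background, 9 of them in the brightest 10% and none in the middle band, with a median percentile of 95.6. Beside Lyz2, myeloperoxidase (Mpo) read 158640 ± 15864 (rank 23), cathepsin G (Ctsg) 60748 ± 6075 and the granule proteoglycan serglycin (Srgn) 46274 ± 4627, and the processing protease Ctsc (20626 ± 2063) lay nearest the median. The elastase Elane read 9033 ± 903 and its neighbour Prtn3 4801 ± 480. On the granulocyte array the same 12 genes had a median percentile of 74.5. Since these genes were bright together, their promoters were read from the RefSeq table of assembly GRCm38.p6, where 10 of the 12 had an entry. The letters GGAAGT, the core bound by PU.1 and other ETS factors, were found on either strand within 250 bases before the start in 9 of the 10, against 21.1% of 15593 array genes with an entry and 20.0% of all 27025 promoters of the table. The longer GAGGAAGT, which contains the former, was found in 4 of the 10 and in 2.19% of the 15593. Of the 10, Calr had neither (chosen after its value was seen). The 100 bases before the start of the 5 genes with a match there are given 5′ to 3′ on the gene's strand, with GGAAGT or its reverse complement in capitals.
Elane, chr10:79886212-79886311, plus strand: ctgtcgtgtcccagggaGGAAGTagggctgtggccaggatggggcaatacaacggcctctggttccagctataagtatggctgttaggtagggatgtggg
Prtn3, chr10:79879567-79879666, plus strand: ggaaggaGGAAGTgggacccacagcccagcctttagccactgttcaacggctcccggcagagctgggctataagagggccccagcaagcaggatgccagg
Cst7, chr2:150570315-150570414, plus strand: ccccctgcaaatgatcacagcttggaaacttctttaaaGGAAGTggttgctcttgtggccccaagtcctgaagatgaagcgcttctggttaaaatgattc
Ms4a3, chr19:11640852-11640951, minus strand: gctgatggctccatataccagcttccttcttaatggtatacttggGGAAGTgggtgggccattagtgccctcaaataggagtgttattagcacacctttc
Lyz2, chr10:117282273-117282372, minus strand: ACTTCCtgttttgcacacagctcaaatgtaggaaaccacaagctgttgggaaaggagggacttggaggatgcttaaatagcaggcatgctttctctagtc

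These matches are letters in a window and no evidence of binding, and the motif was picked after the group was seen to be bright. GGAAGT was also found in 6 of 12 T-cell, 6 of 12 platelet, 6 of 26 classical monocyte and 24 of 64 ribosomal protein promoters. Its relation to signal was not tested. Among the genes with printed promoters, Lyz2 was in the brightest 1%, Ms4a3 (15559) and Elane in the brightest 10%, Prtn3 at the 84.4 percentile and the cystatin Cst7 (1837 ± 184) at the 70.1 percentile.

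Presentation of antigen differed between its classes. Of 17 genes of class I presentation, 12 were in the brightest 10% and 0 in the middle band or below, with a median percentile of 96.1. H2-D1 (127107 ± 12711 and 79076 by its probes), H2-K1 (119354, SD 2505, n = 10 spots), H2-T23 and H2-Q7 (75902) were in the brightest 1%, although class I genes resemble each other and the brighter probe of H2-D1 lists 2 genes. Of 14 class II genes well above background, only the thiol reductase Ifi30 (16772) was in the brightest 10%. H2-DMb1 (5899), H2-Ab1 (5482) and the invariant chain Cd74 (4678) lay between the 60th and the 90th percentile, and Cd86 (486), Cd40 (437) and H2-Aa (745) were in the middle band, with a group median of 57.5.

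Of 33 growth factor and cytokine receptors, 6 were in the brightest 10%, among them the interferon γ receptor Ifngr1 (58645) and the GM-CSF receptor Csf2ra (57334), then Csf1r and Csf2rb (15692), and 7 were in the middle band, with Il15ra (552), Lifr (589) and Il1r2 (460) nearest the 50th percentile (group median 71.2). Chemokines and cytokines had a median of 46.9: Ccl6 (55881), Ccl2 (48789), Ccl3 (36424) and Ccl9 (30706) were bright, while 8 of 34 lay in the middle band, among them Pf4 (422), Ifng (407) and Il15 (711), and 8 of the 42 measured were not well above background. Receptors for chemokines and chemoattractants had 33.1, where Ccr2 and the leukotriene receptor Ltb4r1 (15130) were the only 2 of 26 in the brightest 10%. Pattern recognition receptors and adaptors had 68.4, among them the inflammasome adaptor Pycard (29870), the β-glucan receptor Clec7a (29119), Tlr2 (19876) and the pyrin gene Mefv (14212). Of 39 interferon-stimulated genes, all well above background, 9 lay in the brightest 10% (median 80.0), among them Ifitm3 (57147), Ifi205 (39004), Ifi204 (24503) and Bst2 (14317).

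Complement and coagulation genes showed both extremes. C3 and F13a1 were in the brightest 1% and properdin (Cfp, 33709) and factor X (F10, 19219) in the brightest 10%, yet 20 of the 30 well above background lay under the middle band (median 32.7). Scavenger receptors, which mark tissue macrophages, had a median of 33.0, with only Clec7a in the brightest 10% and the mannose receptor Mrc1 (139) nearest the median. Of the macrophage markers, Adgre1 (F4/80) read 15741 ± 1574 and 238 ± 23.9 by its probes, Vcam1 1193 ± 119, 61.3 ± 6.5 and, not well above background, 5.6, and C1qa 38.7 ± 4.7.

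Detection by the scanner's mark was set beside 4 families used mainly by other tissues, whose members need not all be silent in monocytes. Odorant and vomeronasal receptors alone had 496 of 1038 genes (47.8%) marked as well above background. Of 1242 genes for these receptors, keratins, protocadherins and potassium channels, 601 (48.4%) were marked so. The mark alone was therefore not taken to separate expressed from silent genes here. The 601 genes had a median signal of 34.8, and 95% of them read less than 224, which is at the 39.5 percentile. By that measure 9184 of the 19748 genes (46.5%) lay above the level of these families, and its value falls just under the lower edge of the middle band. Of 1038 odorant and vomeronasal receptors, 14 (1.35%) lay above it, among them Olfr571 (2585) and Olfr279 (1029), and so did 9 of 86 keratins, 5 of 75 potassium channels (6.67%) and 2 of 43 protocadherins. The share was 29 of 33 classical monocyte genes (87.9%) and ran in the other myeloid groups from 30% of scavenger receptors, 32.4% of complement and coagulation genes and 40% of chemokine receptors to 100% of azurophil, class I and NADPH oxidase genes. The highest of all was the keratin-associated gene Krtap4-6 (20497 ± 2050).

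The B-cell markers Cd79a (44.7 ± 4.9) and Ms4a1 (202 ± 20.2) did not exceed the level of the families of other tissues, while in the wider list of 17 B-lineage genes well above background Ighm (30709) and Jchain (10346) were in the brightest 10%, and Ebf1 and Rag2 were not well above background. The immunoglobulin heavy chain locus Igh, which is in none of the groups, lay in the brightest 1% at 117776 ± 11778 (rank 56). All 7 of its probes were well above background, and the others read 47697, 47402, 1899, 1827, 873 and 27.9 ± 3.4. Igh is named because of its value. The part of B cells and plasma cells in these signals was not tested. Cd3d read 830 ± 83, Cd3g 440 ± 44.0 and Cd3e 146 ± 14.7, and 8 of 19 T-cell genes lay in the middle band with none above the 90th percentile (median 40.3, Cd5 at 511 and Cd6 at 586 near the 50th). Of the killer cell markers, Klrd1 read 788 ± 78.8 and Ncr1 was not well above background. The list of 18 killer cell genes held Nkg7 (7736) and the chemokine Ccl5 (4586).

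Of the erythroid genes, the globins Hbb-bt (38289), Hba-a1 (19797) and Hba-a2 (16874) lay in the brightest 10%. Fech read 1441, Alas2 933 ± 93.3, and the erythroid transcription factor Klf1 (34.6 ± 4.0) lay near the bottom. The platelet list lay lower, at a median of 29.2, with Pf4 at 422 ± 42.3, Gp9 at 60.1 ± 6.4 and Itga2b at 30.5 ± 3.7. Of the eosinophil granule proteins, Prg2 read 3177 ± 318 and Epx 280 ± 28.0, and the basophil protease Mcpt8 read 114 ± 11.7. The list of plasmacytoid dendritic cell genes lay higher, with a median of 57.4, 6 of 15 in the middle band, Bst2 in the brightest 10% and 13 of 15 (86.7%) above the level of the families of other tissues, although its marker Siglech read 269 ± 27. Irf7, Tlr7 and Bst2 of that list are also in myeloid groups. Stromal and endothelial genes were the lowest of these lists, at a median of 20.9 with 7 of 23 not well above background, apart from Acta2 (29906).

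**Figure D5:**
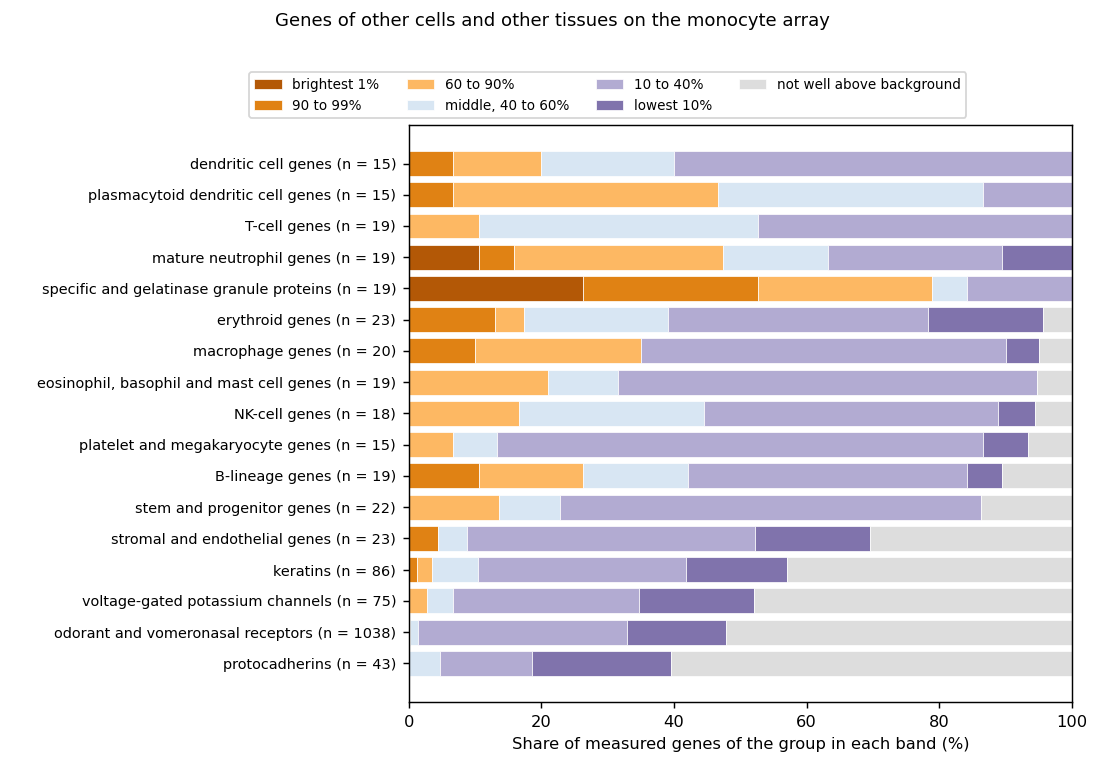
Share (%) of the measured genes of each group that falls in each band of signal on the monocyte array, for 13 groups of other marrow cells and 4 families of other tissues (n, genes measured). Granule proteins of neutrophils reach the brightest 1% with 5 of 19 genes, whereas 542 of 1038 odorant and vomeronasal receptors are not well above background.

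Dendritic cell genes, all 15 well above background, had a median percentile of 37.5, with 1 of them, the lectin Clec10a (8415), in the brightest 10%. Stem and progenitor genes had a median of 31.6, among them the transcription factor Myb (3733), Ly6a (3377) and Cd34 (3183), and Hoxa9, Hoxa10 and Slamf1 were not well above background. The macrophage list had a median of 33.9, with the lipid carrier Apoe (23003) and Adgre1 in the brightest 10% and Timd4 not well above background.

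The neutrophil lists lay apart on this array. Of 19 proteins of specific and gelatinase granules, 10 were in the brightest 10% (median 90.6), among them Chil3, haptoglobin (Hp, 122407), Ltf and Camp, with the siderophore-binding Lcn2 (8337) nearest the median. Of 19 genes of mature neutrophils, 3 were in the brightest 10%, among them S100a9 and S100a8, and the median was 52.6, with G0s2 (628) nearest to it. The same lists had medians of 99.4 and 95.9 on the granulocyte array. Their summed signals were 652576 and 413475 on the monocyte array and 1867384 and 1058747 on the granulocyte array, each on its own scale, and every member was well above background on both. Their part in the bright band was not tested.

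Adhesion molecules and traffic genes spread over the range. Of 40 integrins and adhesion molecules, 8 lay in the brightest 10% and 7 in the middle band (median 66.7), among them the integrin chain Itgb7 (58256), the selectin ligand Selplg (36800), Cd47 (21390) and the hyaluronan receptor Cd44 (18692). Subunits of the proton pump V-ATPase had a median of 77.7, RNA polymerase subunits 80.6, ubiquitin conjugating enzymes 75.6 and Rab GTPases, which direct vesicles, 60.8.

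Most genes of the middle band lay outside these groups: 292 of its 3038 genes belonged to at least 1 and 2746 to none. Most ranked genes lay outside them too, as 2511 of all 15188 belonged to at least 1. Zinc finger genes named Zfp, a large family of DNA-binding proteins that are mostly repressors, gave the most members, 82 of 305 (26.9%, where all genes give 20.0%), with a median percentile of 41.7. Zfp865 (547), Zfp329 (547) and Zfp653 (497) lay nearest the 50th percentile, and Zfp36, the mRNA-destabilising protein tristetraprolin, which is no repressor of this family, read 30970. The share was above 25.7% in T-cell genes (8 of 19), plasmacytoid dendritic cell genes (6 of 15), class II presentation (5 of 14), killer cell genes (5 of 17), non-classical monocyte genes (5 of 17) and ribosome biogenesis (12 of 42), and it was 25.7% in pattern recognition (9 of 35). RNA helicases (10 of 51) and aminoacyl-tRNA synthetases (8 of 35) lay near the share of all genes.

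The brightest genes were largely those of the granulocyte array as well. Of the 152 genes of the brightest 1%, 78 (51.3%) were also in the brightest 1% of 146 genes there, which is 53.4% of that set, and 146 were in its brightest 10%. Lars2, S100a9, Ptprz1 and Lrrc58 held ranks 1 to 4, in this order, on both. The members of the brightest 1% that ranked lowest on the granulocyte array were F13a1 (rank 7158 there), Klf4 (5695), Hspa1a (5247) and S100a4 (4951), chosen after their values were seen. The sex given in the labels was looked at through 5 linked genes: the Y-linked Eif2s3y read 2535 and Ddx3y 992, and Xist read 32.3 at most over its 4 probes. Kdm5d and Uty, also Y-linked, did not exceed the level of the families of other tissues (224). The 5 genes had a median signal of 217 and a lowest of 27.8.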

How the data were processed

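Total RNA of 1 monocyte and 1 granulocyte sample was hybridised to 1 one-colour Agilent mouse array each, on the same slide and scan. Per the file headers, the deposited processed signal is a background-subtracted intensity made by Agilent Feature Extraction 10.5.1.1, with a scanner error whose multiplicative part is 0.1 of the signal. The deposited value table holds log2 values by the authors. Set against the scanner values, it equals the log2 processed signal plus a constant of -0.924 (within 0.01 for 100.0% of probes with 1 spot), with a median of 4.80. The rule behind the constant is unknown here.

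Control spots and 103 outlier spots were left out, which kept 43276 spots and 41140 probes. None was saturated. Spots of a probe were averaged, and a gene took its brightest probe well above background. Probes were named through RefSeq accessions (24482), current symbols (6230) or older symbols (2376), and 8052 stayed unnamed. The 153 negative control spots had a median signal of 2.16, none well above background. Precision is limited by there being 1 array per cell type.

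The gene groups and the choice of the array were made with earlier results of these data known, and the histone pattern was completed after the gene names were seen. Genes named are the 40 brightest, the cell type markers and, per group, the 4 brightest, the one nearest the median, the 3 nearest the 50th percentile where at least 3 lie in the middle band, and up to 4 not well above background for groups of other cells. Other genes are said to be chosen after their values were seen, or are shown for their sequence, and a few that the rule names are not reported here. Alternatives changed background correction, probe choice, filters and band edges. Python 3.11.15, pandas 2.3.3, numpy 2.4.6, matplotlib 3.10.9, R 4.3.3 and limma 3.58.1 were used. The ranking steps were tested on simulated data with a single probe per gene, all marked well above background. That test did not cover the choice of probe or the detection mark.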

Additional observations from a re-analysis of the deposited data

Results flagged for a closer look

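A probe of the ribosomal RNA gene Rn18s, which stood outside the named genes, read 324851.1, above every named gene but Lars2. The other probe of Rn18s read 4374 and a probe of Rn28s1 read 955. Among the 412 brightest 1% of all probes, 50 had no gene name here (12.1%, against 19.6% over all probes). Of the 8052 unnamed probes, 3925 were well above background. The negative control spots reached at most 3.61.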

How the results depend on the processing

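No paired analysis was possible because each cell type had 1 array. The 15188 genes detected became 15014 to 17432 under the alternatives. Of the 152 brightest genes, 120 to 152 were shared under the planned changes of background, probe and filter, and 99 when each gene took its dimmest probe above background (chosen after seeing the data). Bands of 0.5% and 2% held 76 and 304 genes. Of the 3038 genes of the middle band, 1678 were shared with the median probe of a gene and 728 with the dimmest. A band from 45 to 55% held 1518. Of 60 group medians, 31 stayed within 5 percentile points with the dimmest probe and 32 with all measured members ranked. The causes were not tested. Signal near background limits the lowest ranks.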

Other observations

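The share of promoters with TATAAA differed between the bands. In the RefSeq promoters of GRCm38.p6, TATAAA on the gene's strand between 40 and 16 bases before the start was found in 9 of 117 genes of the brightest 1% (7.69%), 25 of 2452 of the middle band (1.02%) and 4.96% of genes not well above background. Over all array genes with an entry it was found in 409 of 15593 (2.62%). Histones held it in 10 of 49 and S100 proteins and annexins in 5 of 23, but so did 34 of 68 keratins, a family low in signal here. CCAAT, on either strand within 250 bases, was found in 12 of 15 genes of class I presentation, 35 of 49 histones and 27 of 39 mitotic genes. It was also found in 8 of 9 protocadherins, a family low in signal here, against 36.0% of all array genes with an entry. By band the share was 39.3% in the brightest 1%, 37.2% in the middle band and 35.7% among genes not well above background. These motifs were chosen after the values were seen, genes of a family share descent, and a match is no binding site.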
